A study of Drosophila melanogaster with 19 samples.

Results

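The antimicrobial peptide genes of Drosophila were followed over all groups of an over-expression experiment in the pupal notum. A list of 10 genes was taken, and a gene counted as measured where a probe set named it and no other gene. By this rule 5 of 10 genes were measured, each by 1 probe set: DptB, Mtk, AttD, Drs and Def. They belong to 11982 genes so named in the series. DptA, AttA, AttC, CecA1 and Dro had no such probe set and were not analysed here. The list was chosen by measured values in part: DptB was put on it because it was higher in the Sens group than in the GFP group, so its values in that comparison, and those of the other genes there, are descriptions without a test.

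Antimicrobial peptides are short peptides that flies make against bacteria and fungi. The fat body secretes most of them into the haemolymph after infection, and barrier epithelia and blood cells make some of them locally. Their genes are switched on by the Imd pathway, which ends in the NF-kappaB factor Relish, and by the Toll pathway, which ends in the related factors Dif and Dorsal. DptB encodes a diptericin, a peptide against Gram-negative bacteria and a classical Imd readout. Drs encodes drosomycin, an antifungal peptide and the classical Toll readout. Mtk encodes metchnikowin, a proline-rich peptide against fungi and bacteria, Def encodes defensin, which acts on Gram-positive bacteria, and AttD is a member of the attacin family.

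All flies carried sca-Gal4, which drives UAS transgenes in the proneural territories of the notum, and tub-Gal80ts, which blocks Gal4 at low temperature. Crosses grew at 18 °C and spent the 6 h before dissection at 29 °C, and notums were taken at 16 h after puparium formation in pools of 8 to 12. The groups were UAS-Ac (2 arrays), UAS-Sens (3), UAS-Ase (3), UAS-E(spl)m3-HLH (m3, 3), UAS-Ac with UAS-Sens (Ac+Sens, 3), UAS-Ase with UAS-E(spl)m3-HLH (Ase+m3, 2) and the control UAS-GFPnls (GFP, 3). No infection or wound is named in the labels. Levels are log2 signals as deposited, and differences are log2 differences, with the over-expression group minus the group it is set against.

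Some arrays need to be known before the results. On 4 arrays (replicate 3 of Sens, Ase, m3 and Ac+Sens) 60.3% to 60.6% of 18769 probe sets are listed at exactly 0, and these entries were treated as missing. DptB and AttD are at 0 on all 4 and Mtk on 3 of them, so their groups have 2 arrays there. On the array labelled Sens replicate 1, sens was at 7.38, against 10.76 and 10.75 on the other Sens arrays and 7.15 to 7.55 on GFP arrays. On that array the proneural gene sc was at 10.63, a level of the Ac arrays (10.37 and 10.42) and not of GFP arrays (6.95 to 7.28), so both levels go against the label. Ase+m3 replicate 2 was least like the rest (Spearman rho of 0.890 in the median, where each remaining array had 0.964 to 0.987), and genes spanning at least 6192 bases deviated on it by a median of −0.80. All 9 measured markers of notum epithelium had a value on every array, with a mean level of 7.97 to 8.65. Fat body and haemocyte markers were measured too, as given beside the results. The haemocyte markers crq and srp averaged 8.52 and 7.51 over the 15 arrays without zeros. Below the median of all probe sets lay, among others, eater, He and lz (2.78, 3.14 and 2.88). In such pooled tissue fewer cells of a type and less RNA per cell cannot be told apart.

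DptB stood highest in Sens. It was at 4.78 and 5.37 on Sens replicates 1 and 2, against 3.28, 3.79 and 3.67 on the GFP arrays. The lower of these Sens arrays lies above every array of the other 6 groups, the next being Ac+Sens replicate 1 at 4.14. The group means were 5.08 ± 0.42 (SD, n = 2) in Sens and 3.58 ± 0.27 (SD, n = 3) in GFP, a difference of 1.496 or 2.82-fold. These are the values that chose the gene, and over all probe sets 0.218% were called higher in Sens than in GFP and 18.9% were higher without overlap. Without the array labelled Sens replicate 1, 1 Sens array is left and the difference is 1.79.

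The level of DptB was read beside that of sens on the same arrays. On the array labelled Sens replicate 1, where sens was at the GFP level, DptB was at 4.78. On Ac+Sens replicates 1 and 2, where sens was at 10.91 and 10.62, DptB was at 4.14 and 4.02. Both lie above the GFP arrays, as in 16.1% of all probe sets, and below the Sens arrays. The difference from GFP in Ac+Sens was 0.50 (SE 0.17, 95% interval 0.13 to 0.88, adjusted p = 0.240 by limma), which did not pass the test, and the GFP arrays are those used to choose the gene. Against Ac, whose arrays had no part in the choice, Ac+Sens was higher by 0.47 (SE 0.19, adjusted p = 0.431), again without passing. In the other groups DptB was at 3.60 and 3.63 in Ac, 3.69 and 3.57 in Ase, 3.43 and 3.35 in m3, and 3.82 and 3.70 in Ase+m3. The group means ran from 3.76 in Ase+m3 down through Ase, Ac and GFP to 3.39 in m3. No neighbouring means in this order differ by more than the pooled within-group SD of 0.21.

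**Figure D1:**
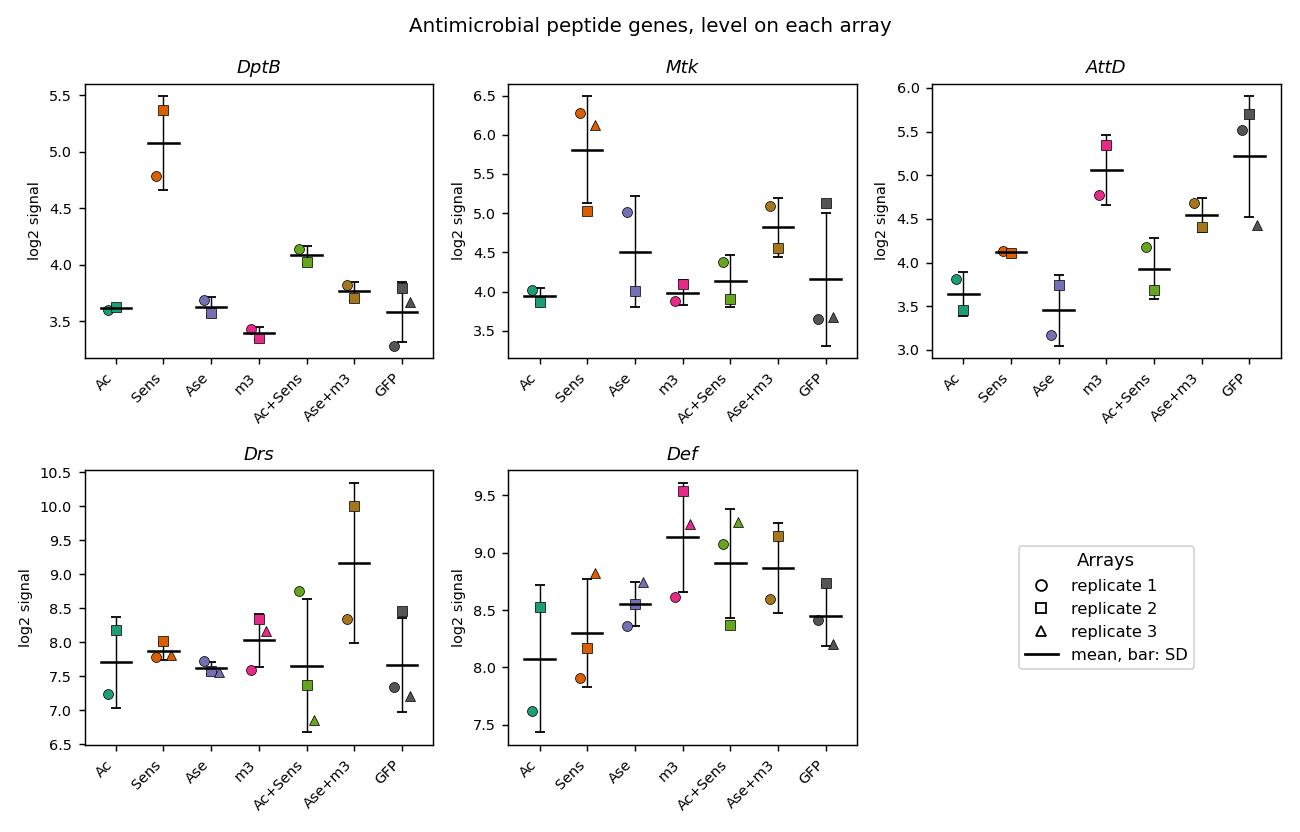
Log2 signal of the 5 measured antimicrobial peptide genes on each array, by group, with the group mean (line) and SD (bar). Circles, squares and triangles are replicates 1, 2 and 3, and entries listed at 0 are left out. DptB and Mtk stand highest in Sens, AttD stands highest in GFP and m3, and Drs reaches 10.0015 on a single Ase+m3 array.

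Mtk was also highest in Sens. It was at 6.28, 5.03 and 6.12 on Sens replicates 1, 2 and 3, against 3.65, 5.13 and 3.68 on the GFP arrays. Sens replicate 2 lies below GFP replicate 2, so these groups overlap. The means were 5.81 ± 0.68 (SD, n = 3) in Sens and 4.15 ± 0.85 (SD, n = 3) in GFP, a difference of 1.66 or 3.15-fold, and of 1.42 without the array labelled Sens replicate 1. Mtk has a value on Sens replicate 3 while it is listed at 0 on replicate 3 of Ase, m3 and Ac+Sens, and 17 of 18769 probe sets share that pattern. So its mean in Sens includes replicate 3 and its means in Ase, m3 and Ac+Sens do not. As zeros go with a low level, these means are filtered by level. The contrast of Sens and GFP chose DptB, so no test is given.

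Outside Sens, the group means of Mtk ran from 4.82 in Ase+m3 to 3.95 in Ac. Mtk was at 5.01 and 4.01 in Ase, and at 5.09 and 4.56 in Ase+m3. It was at 4.02 and 3.87 in Ac, 3.87 and 4.099 in m3, and 4.37 and 3.90 in Ac+Sens, which overlap the Ase arrays and lie below both Ase+m3 arrays. Against m3, 27.3% of all probe sets were likewise higher in Ase+m3 without overlap, and against Ac and Ac+Sens that share was not counted. The difference from GFP was largest in Ase+m3, at 0.67 (SE 0.46, adjusted p = 0.382), and the 95% interval of −0.33 to 1.67 holds 0. Below Sens, no neighbouring means in the order Ase+m3, Ase, GFP, Ac+Sens, m3 and Ac differ by more than the pooled within-group SD of 0.59. Mtk was lower in Ac+Sens than in Sens by −1.67 (SE 0.46, adjusted p = 0.347), with no overlap of arrays. Among all probe sets 19% were lower without overlap in that comparison, and the Sens arrays are those of the contrast that chose DptB.

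**Figure D2:**
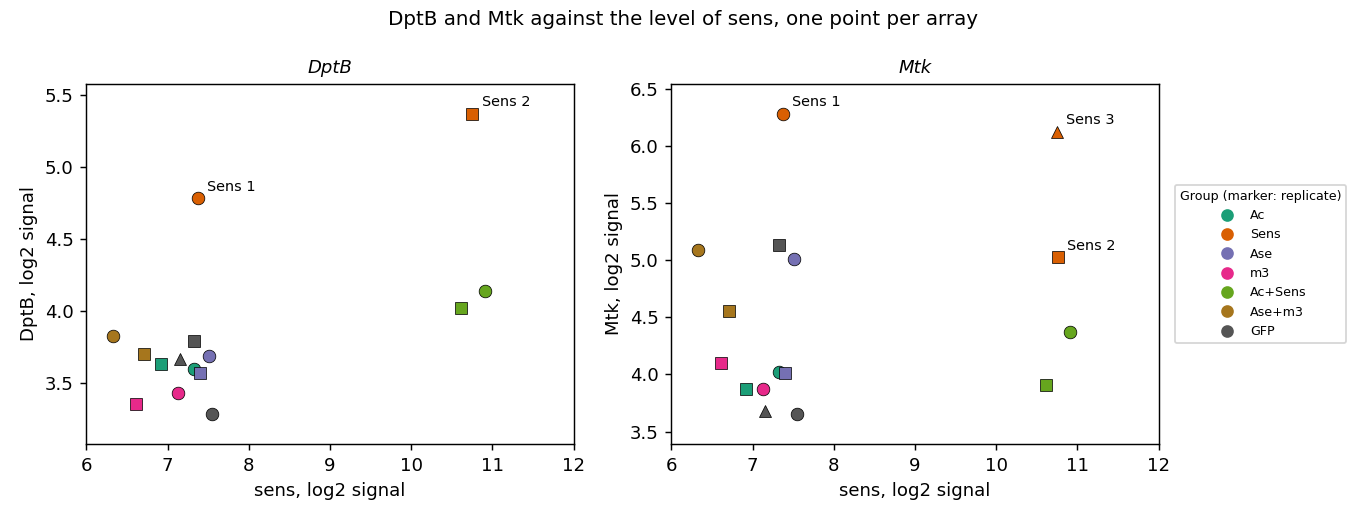
Level of DptB (left) and Mtk (right) against that of sens on the same array, in log2 signal, 1 point per array, coloured by group. The array labelled Sens replicate 1 has a high DptB (4.78) and Mtk (6.28) at a GFP-like sens level of 7.38, while the Ac+Sens arrays have high sens and DptB at 4.14 and 4.02.

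Markers of other cell types were set beside these levels. Of 14 fat body markers 10 were measured and 7 had a value on every array, with only the yolk protein genes Yp1, Yp2 and Yp3 at 0 on the 4 arrays with zeros. Their summed signal, in log2, was 12.46 to 13.04 in Sens and 12.30 to 12.96 in GFP. Lsp2, a larval serum protein of the fat body, averaged 11.37 in Sens and 11.29 in GFP. The lipoprotein gene apolpp averaged 10.97 in Sens and 10.84 in GFP. Of 14 haemocyte markers, all measured, 5 had a value on every array, and their summed signal was 9.55 to 10.03 in Sens and 9.48 to 9.53 in GFP. Hml, eater, He, lz, PPO1, PPO2, PPO3 and Sr-CI were at 0 on the 4 arrays with zeros. The 5 summed haemocyte markers were Pxn, srp, crq, vkg and Col4a1. So the Sens arrays were higher than the GFP arrays in this haemocyte sum and overlapped them in the fat body sum. The haemocyte sum was also above the GFP arrays in Ac (9.60 to 10.03), Ase (9.68 to 9.85), m3 (9.65 to 9.72) and Ac+Sens (9.64 to 10.46). Of the 14 haemocyte markers 10 had a positive difference in Sens from GFP, while lz averaged 2.73 in Sens and 3.51 in GFP. The median difference of the 14 markers was 0.11, against 0.05 over all probe sets, where positive differences were not counted. The part of haemocytes and fat body in the levels of DptB and Mtk was not tested.

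AttD, an attacin gene, was the only measured member to change in a test. It fell in Ase, at 3.17 and 3.74, against 5.52, 5.70 and 4.43 on the GFP arrays, and the groups do not overlap (8.58% of all probe sets were lower in Ase without overlap). Both Ase levels lie below the median of all probe sets on those arrays (4.20 and 4.23). The means of AttD were 3.46 ± 0.41 (SD, n = 2) in Ase and 5.22 ± 0.69 (SD, n = 3) in GFP. The difference was −1.76 (SE 0.34, 95% interval −2.50 to −1.02, adjusted p = 0.0274), so that AttD in Ase was at 0.295 of its GFP signal. It was 1 of 5 members to fall in Ase and 0 of 5 rose, while 0.24% of all probe sets were called lower and 1% higher. The count of called probe sets behind these shares was 233 in either direction, and 84 without Ase replicate 1 and 501 without Ase+m3 replicate 1. The call was lost without GFP replicate 1 (adjusted p = 0.103), GFP replicate 2 (0.108), Sens replicate 2 (0.0513), Ase replicate 1 (0.260) or Ase replicate 2 (0.0750), with differences of −1.47 to −2.05 in these settings.

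AttD was low in other groups as well. It was at 3.82 and 3.46 in Ac, at 4.14 and 4.11 in Sens and at 4.18 and 3.69 in Ac+Sens, all below the lowest GFP array (8.33%, 8.03% and 10.7% of all probe sets were lower without overlap in Ac, Sens and Ac+Sens). It was at 4.78 and 5.35 in m3 and at 4.68 and 4.41 in Ase+m3, which overlap the GFP arrays. In Ac the difference from GFP was −1.58 (SE 0.34, adjusted p = 0.159) and in Ac+Sens −1.28 (SE 0.34, adjusted p = 0.132). Neither passed the test with all arrays, but without GFP replicate 3, the lowest GFP array, they were −1.97 (adjusted p = 0.00787) and −1.68 (0.0139). Leaving out that array raises the GFP mean, so larger differences follow from the choice of array. Over 27 other settings AttD was called in 2 for Ac and in 3 for Ac+Sens. These comparisons share the 3 GFP arrays with that of Ase. In Sens, with no test, the difference was −1.09, and −1.10 without the array labelled Sens replicate 1. In m3 it was −0.15 (95% interval −0.89 to 0.58, adjusted p = 0.898) and in Ase+m3 −0.67 (95% interval −1.40 to 0.07, adjusted p = 0.243). Calls over all probe sets in either direction made up 0.218% in Ac, 0.773% in Ac+Sens, 0.341% in m3 and 2.31% in Ase+m3, and 0 of 5 members were called in each of these.

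AttD was also compared between over-expression groups, where the GFP arrays enter only through the pooled spread. Ase+m3 was higher than Ase by 1.09 (SE 0.37, adjusted p = 0.0878), without overlap, where 22.5% of all probe sets were also higher without overlap. This did not pass the test with all arrays, and passed in 1 of 27 other settings, that without GFP replicate 3 (adjusted p = 0.0431). Over the 5 groups Ac, Ase, m3, Ac+Sens and Ase+m3, the moderated F of AttD was 7.78 (adjusted p = 0.0519), with 5% of all probe sets called. The F passed without GFP replicate 2 (adjusted p = 0.0478), GFP replicate 3 (0.0141), Ase+m3 replicate 1 (0.0247) or Ase+m3 replicate 2 (0.0406). In the order of group means of AttD, from GFP and m3 down to Ase+m3, Sens, Ac+Sens, Ac and Ase, only m3 and Ase+m3 differ by more than the pooled within-group SD of 0.43. The other members had an adjusted p for F of 0.114 (DptB), 0.191 (Def), 0.191 (Drs) and 0.50 (Mtk), so 0 of 5 passed with all arrays.

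**Figure D3:**
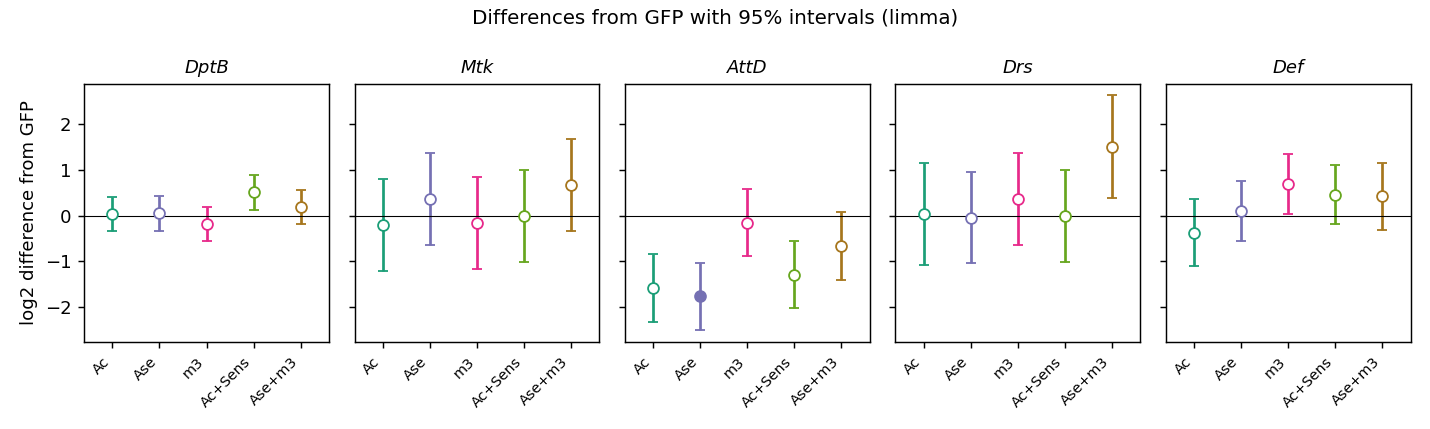
Log2 difference from GFP of the 5 genes in the 5 groups other than Sens, from limma, with 95% intervals. The filled point (AttD in Ase, −1.76) has an adjusted p under 0.05, and open points do not.

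A haemocyte marker moved in the same comparison as AttD. NimC1, a phagocytosis receptor of plasmatocytes, was at 5.83 and 5.95 in Ase, against 5.14, 5.08 and 4.87 in GFP, and rose by 0.86 (SE 0.15, adjusted p = 0.0145). The call was lost without Ase replicate 1 (adjusted p = 0.0910) or replicate 2 (0.139). In Ac+Sens NimC1 was likewise higher than in GFP, by 0.91 (SE 0.13, adjusted p = 0.00721), and in m3, where AttD was near its GFP level, it differed by 0.03. The summed haemocyte signal was 9.68 to 9.85 in Ase, 9.65 to 9.72 in m3 and 9.48 to 9.53 in GFP. Of the 14 haemocyte markers 10 had a positive difference in Ase from GFP. Among the others, He and lz averaged 2.81 and 2.86 in Ase and 3.23 and 3.51 in GFP. The median difference of the 14 markers was 0.15, against 0.08 over all probe sets, where positive differences were not counted. The summed fat body signal was 12.74 to 13.30 in Ase and 12.30 to 12.96 in GFP. Of 14 haemocyte markers 1 rose and 0 fell in Ase, with 4 at an unadjusted p under 0.05, and of 10 fat body markers 0 rose and 0 fell by limma, with 2 at an unadjusted p under 0.05. Over all probe sets 1% were called higher and 0.24% lower in Ase, and those under the unadjusted limit were not counted. The part of haemocytes and fat body in the level of AttD was not tested.

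Drs had its highest level on a single array. It was at 8.34 and 10.0015 on Ase+m3 replicates 1 and 2, against 7.34, 8.46 and 7.21 on the GFP arrays. Ase+m3 replicate 1 lies within the range of the GFP arrays, and replicate 2, the array that stands apart from all others, lies above every other array. The difference from GFP was 1.502 (SE 0.52, 95% interval 0.39 to 2.62, adjusted p = 0.114), from Ase 1.55 (SE 0.52, adjusted p = 0.0780) and from m3 1.14 (SE 0.52, adjusted p = 0.168). None passed with all arrays. With only Ase+m3 replicate 2 left, the 3 differences were 2.33, 2.38 and 1.97, and with only replicate 1 left the difference from GFP was 0.67. The transcription unit of Drs spans 387 bases, and genes spanning at most 1560 bases deviated on Ase+m3 replicate 2 by a median of 0.32. With the trend on gene length removed from each array, Drs on that array was at 9.86. In Ase+m3, 4.3% of all probe sets were called lower against Ase, 4.03% against m3 and 0.57% against GFP. Some markers of the notum epithelium were among them. Of 9 such markers, shg (E-cadherin) fell in Ase+m3 by 0.74 against Ase (adjusted p = 0.0352) and by 0.65 against m3 (0.0448), ush and eyg fell against m3 by 0.63 (0.0477) and 0.86 (0.0255), and ara fell against GFP by 0.65 (0.0450). Without Ase+m3 replicate 2 all 5 calls were lost (adjusted p = 0.233, 0.341, 0.159, 0.0978 and 0.130, in that order). Over 28 other settings the calls for shg were lost in 9 against Ase and 21 against m3, those for ush and eyg in 21 and 7, and that for ara in 20. The part of tissue make-up and of this array in the level of Drs was not tested.

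In the other groups Drs held no order beyond its spread. The Sens arrays were at 7.78, 8.02 and 7.81, the Ase arrays at 7.73, 7.58 and 7.56, and the m3 arrays at 7.59, 8.34 and 8.16. The arrays of Ac were at 7.23 and 8.18, and those of Ac+Sens, which lie farthest apart of these groups, at 8.75, 7.37 and 6.85. The Ac+Sens mean was 7.66 ± 0.98 (SD, n = 3) and the GFP mean 7.67 ± 0.69 (SD, n = 3), a difference of −0.01 with a 95% interval of −1.01 to 0.98. Below Ase+m3, no neighbouring group means of Drs differ by more than the pooled within-group SD of 0.65.

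Def did not pass any test. It was at 8.61, 9.54 and 9.25 in m3, against 8.41, 8.73 and 8.20 in GFP. The groups overlap, as m3 replicate 1 lies below GFP replicate 2. The difference of 0.68 (SE 0.31, 95% interval 0.03 to 1.34) had an adjusted p of 0.395. Ac+Sens was at 9.08, 8.37 and 9.27, and Ase+m3 at 8.59 and 9.15. The lowest group was Ac, at 7.62 and 8.53, and the difference of Ac+Sens from Ac was 0.83 (SE 0.34, adjusted p = 0.425). Sens (7.90, 8.17 and 8.82) and Ase (8.36, 8.56 and 8.75) overlapped GFP. The group means of Def ran from 9.13 in m3 to 8.07 in Ac, and no neighbouring means differ by more than the pooled within-group SD of 0.42.

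Over all 9 tested comparisons, 1 of 45 tests of a member was called and 13 had an unadjusted p under 0.05 by limma. The share of all probe sets under that limit was not counted in any comparison, so the 13 are not read as an excess. In other lists 14 of 81 tests of notum epithelium markers, 26 of 126 of haemocyte markers and 8 of 90 of fat body markers were under it. The interaction of Ase and m3, tested in the same model, was called for 0 of 5 members, with 1.25 (SE 0.50, adjusted p = 0.139) for AttD and 1.18 (SE 0.70, adjusted p = 0.307) for Drs. The share of all probe sets called in the comparisons between over-expression groups was 0.0799% for Ac+Sens against Ac, 0.0533% for Ac+Sens against Sens, 5.6% for Ase+m3 against Ase and 6.56% for Ase+m3 against m3, with 0 of 5 members called in each. The shares for Ase+m3 rest on single arrays: the 1051 probe sets called against Ase were 35 without Ase replicate 1 and 3435 without Ase+m3 replicate 1, and the 1231 called against m3 were 39 without m3 replicate 2 and 3281 without Ase+m3 replicate 1. DptB was at 0.502 of its Sens signal in Ac+Sens, with no overlap of arrays, and 19% of all probe sets were likewise lower without overlap. This comparison uses the Sens arrays that chose the gene. Without the array labelled Sens replicate 1, with 1 Sens array left, the log2 difference was −1.29, and no weight is given to it for the same reason.

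These genes varied more between arrays of a group than most genes did. The pooled within-group SD was 0.65 for Drs, 0.59 for Mtk, 0.43 for AttD, 0.42 for Def and 0.21 for DptB, while the median over all genes was 0.15. For Drs 98.9% of genes had a lower SD, and for DptB 72.9%.

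The members did not move as 1 block. Over the 15 arrays without zeros, and so over libraries shared by all the genes, Def and Drs had a Pearson r of 0.68 (0.67 without Ase+m3 replicate 2). DptB and Mtk had an r of 0.64, which was 0.40 without Sens replicates 1 and 2. The other 8 pairs had an r between −0.33 (DptB and Def) and 0.42 (AttD and Def). Among 11977 other genes, those with the highest r were Gr39b (0.86), CG13227 and HP1e for DptB, and CG14669 (0.84), Abca3 and Obp85a for Mtk. For AttD they were CG15236 (0.84), CG11498 and CG16743. For Def they were CG32212 (0.86), CG42855 and Cpr92F. For Drs they were CG41128 (0.92, and 0.81 without Ase+m3 replicate 2), CG17224 and REPTOR-BP. As the best of so many genes over 15 arrays, these values are high by choice, and no gene of the immune lists was among them.

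Other immune peptides were followed in a list of 24 genes, of which 13 were measured. Over the 9 tested comparisons 2 tests were called, both for Drsl6, a drosomycin-like gene. It was at 5.11 and 5.88 in Ac and at 5.46 and 5.53 in Ac+Sens, against 4.18, 4.55 and 3.70 in GFP. All Ac and Ac+Sens arrays lie above all GFP arrays, as they do for 11.1% and 16.1% of all probe sets. Drsl6 rose by 1.35 (SE 0.24, adjusted p = 0.0478) in Ac and, in Ac+Sens, also by 1.35 (SE 0.24, adjusted p = 0.0242), and these comparisons share the GFP arrays. Over all probe sets 0.218% were called in Ac and 0.773% in Ac+Sens. On Sens replicates 1 and 2 it was at 3.79 and 3.86, within the range of the GFP arrays, although sc on the array labelled Sens replicate 1 was at the level of the Ac arrays. It was at 3.86 and 3.94 in Ase, 4.31 and 4.47 in m3, and 4.65 and 4.80 in Ase+m3. Its mean over the 15 arrays without zeros was 4.54, near the median of all probe sets. The call in Ac was lost in 16 of 27 other settings, among them those without Ac replicate 2 (adjusted p = 0.747), GFP replicate 1 (0.167) or any single Ase or m3 array. For Ac+Sens the adjusted p was 0.0840 without GFP replicate 1, and 0.132 and 0.156 with the first or the second Ac+Sens array left out.

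**Figure D4:**
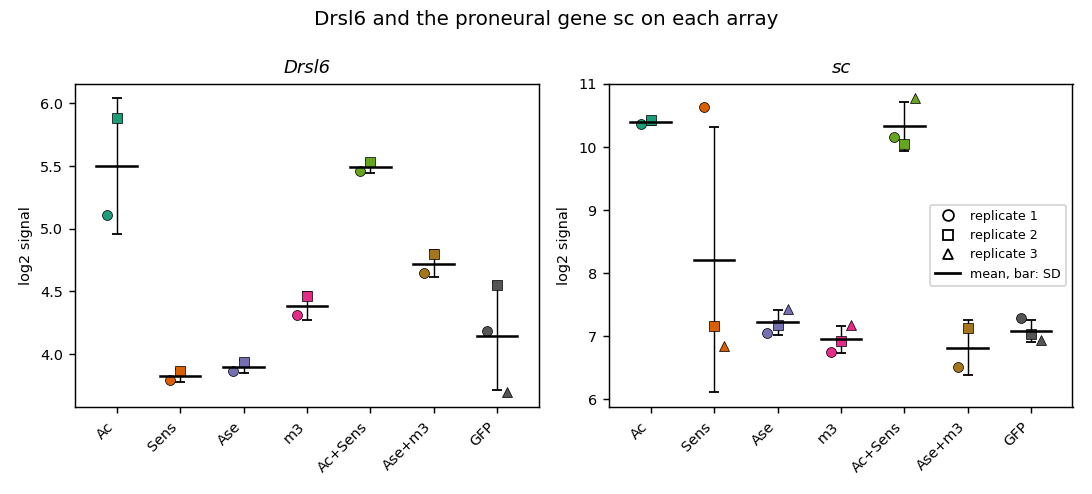
Log2 signal of Drsl6 (left) and of the proneural gene sc (right) on each array, by group. Drsl6 is at 5.11 to 5.88 on the Ac and Ac+Sens arrays and at 4.80 or lower elsewhere, including the array labelled Sens replicate 1 (3.79), where sc is at 10.63.

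Genes of the controlling pathways were counted in the same way, to be read against the shares of all probe sets called, which were 5.6% in Ase+m3 against Ase, 6.56% in Ase+m3 against m3 and 0.773% in Ac+Sens against GFP. Of 28 genes of the Imd pathway 22 were measured, and 0 of 198 limma tests over the 9 comparisons were called. Of these tests 32 had an unadjusted p under 0.05, a count not made over all probe sets. The median difference of the Imd list ran from −0.19 to 0.10, against −0.04 to 0.08 over all probe sets. The list holds akirin, which acts with Relish in the nucleus, and Uev1A, which helps to build ubiquitin chains. Of 20 Toll genes 17 were measured and 1 test was called. Gprk2, a kinase that binds Cactus, fell in Ase+m3 against Ase by 0.84 (adjusted p = 0.0465), a call lost in 23 of 28 other settings, among them that without Ase+m3 replicate 2 (0.425). Of 13 JAK/STAT genes 7 were measured, and in the same comparison the stress peptide gene TotZ rose by 1.24 (adjusted p = 0.0472) and the transcription factor gene Stat92E fell by 0.43 (0.0492). Both calls were lost in 22 other settings. Of 12 JNK and wound genes 11 were measured. kay, the fly Fos gene, rose in Ac+Sens against GFP by 0.64 (adjusted p = 0.0232) and fell in Ase+m3 against m3 by 0.59 (0.0329). The first call was lost in 6 of 28 other settings, among them those without GFP replicate 1 (adjusted p = 0.0850) or 2 (0.109) or Ac+Sens replicate 1 (0.118) or 2 (0.0757), and the second in 9 of 28, among them that without Ase+m3 replicate 2 (0.148).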

How the data were processed

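RNA from pools of 8 to 12 notums (500 ng) was hybridised to Affymetrix expression arrays, 19 in all, with biological replicates per the labels' protocols, so p-values measure the spread between these pools. The deposited values are log2 signals, made with RMA per the submitters' processing notes, with no version given. Entries of exactly 0 were set to missing on 4 arrays. The values left there had a median of 8.24 to 8.35, against 4.10 to 4.34 on the other arrays. So the missing entries are mostly those of dim probe sets, and being missing depends on the level. Array number, not read depth, limits the precision. Differences came from 1 limma 3.58.1 model (R 4.3.3) with 7 group means over all 19 arrays, two-sided, with Benjamini-Hochberg adjustment over 18769 probe sets and a call at an adjusted p under 0.05. The script was tested on simulated data. Where several probe sets named a gene alone, that with the highest mean level on the 15 arrays free of zeros stood for it. Members and gene lists were chosen with earlier results of these data known. Named were all members, the called genes of each list or else its 2 with the highest mean, the 3 genes most like each member, and sens and sc. Gene spans are from RefSeq's Release 6 table. Alternatives covered left-out arrays, array weights, a replicate block, probe set filters, normalization and, added after seeing the data, removal of a trend on gene length and a quantile normalization with zeros ranked lowest. A planned count of promoter motifs was not run.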

Additional observations from a re-analysis of the deposited data

How the results depend on the processing

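Precision is limited by 2 or 3 arrays a group and by the zeros, which leave DptB and AttD with 2 arrays in most groups. Across 28 alternatives the count of called members stayed at 0 for Ac+Sens against Ac and for m3 against GFP. Leaving out 1 array gave 0 to 1 called members in Ac, Ase, Ac+Sens and Ase+m3 against GFP, in Ac+Sens against Sens, and in Ase+m3 against Ase and against m3, and 0 to 2 by F. For Ase against GFP the count was 0, not 1, with probe sets measured on all 19 arrays, where AttD is not tested, and with quantile normalization repeated. With array weights it was 1, not 0, in Ac+Sens against GFP (AttD) and against Sens, where the gene is DptB and the Sens arrays are those that chose it, so no weight is given to that call. Counts of called probe sets moved by over 1.5 times with 1 array left out in Ac (41, and 8 to 53), Ase (233, and 84 to 501), m3 (64, and 32 to 154), Ac+Sens (145, and 50 to 261) and Ase+m3 (433, and 92 to 2901) against GFP, and in Ac+Sens against Ac (15, and 3 to 62) and Sens (10, and 3 to 14). Across the settings that do not leave out 1 array they ran over 0 to 1693 in Ase against GFP, 4 to 1483 in Ase+m3 against Ase and 1 to 1158 in Ase+m3 against m3. Same-numbered arrays were not paired (r of −0.42 to 0.55 over 52 pairs, 15 of them over 0.1). With the replicate block the count was 1, not 0, for Ac against GFP, Ac+Sens against GFP and F, all through AttD. The repeated quantile normalization spreads only bright probe sets over the whole distribution on the 4 arrays with zeros. Under it the sign turned for Gprk2 (0.60), Stat92E (0.16) and shg (0.80) in Ase+m3 against Ase, for kay (0.90), ush (0.74), eyg (0.68) and shg (0.86) in Ase+m3 against m3, and for kay (−0.59) and NimC1 (−0.32) in Ac+Sens against GFP.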

Other observations

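Of 13 measured genes among the other immune peptides, 4 had a highest array more than 1 log2 unit above the next, a limit chosen after the values were seen. The share of all probe sets with such a gap was not counted, so the 4 genes are not read as an excess. All 4 highest values lie on an Ase+m3 array. Drsl3 and Drsl2, drosomycin-like genes, were at 6.97 and 6.26 on Ase+m3 replicate 1, and at 3.75 and 3.28 on Ase+m3 replicate 2. The Bomanin genes BomT2 and BomS2 differed in which array was high: BomT2 was at 4.74 on Ase+m3 replicate 1 and 3.45 on replicate 2, and BomS2 was at 3.35 on replicate 1 and 6.36 on replicate 2. In Ase+m3 against Ase, 12 of the 13 genes had a positive difference, with a median of 0.82 against 0.01 over all probe sets. By limma 0 were called, with 6 at an unadjusted p under 0.05. Over all probe sets 5.6% were called in either direction and 1.29% higher, and the share under the unadjusted limit was not counted. In the same comparison 1 of 9 notum epithelium markers had a positive difference, with a median of −0.43. On Ase+m3 replicate 2, which had a median Spearman rho of 0.890, genes spanning at most 1560 bases deviated by 0.32 and those spanning at least 6192 bases by −0.80. The part of these in the peptide genes' differences was not tested.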
